A study of Rattus norvegicus with 49 samples.

Results

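The response of rat liver to propylene glycol phenyl ether (PPH), an aromatic glycol ether used as a solvent, was described across all measured genes at the highest dose, 1000 mg/kg. The arrays were chosen by their titles: 4 liver arrays at 1000 mg/kg and 5 liver arrays at 0 mg/kg, which are 9 of the 25 liver arrays and 9 of the 49 arrays of the series. All animals were male Harlan Sprague Dawley rats, an outbred stock, 6 to 8 weeks old when randomised after 10 to 14 days of quarantine, and caged in groups of 5. Rats of the 1000 mg/kg group received PPH in corn oil and those of the 0 mg/kg group corn oil alone, both at 5 mL/kg by gavage on 5 consecutive days, with livers taken the day after the last dose. The treatment text of the labels names another compound (MCHM), and the series title and sample labels, which name PPH, were followed. The labels call the samples biological replicates, and do not say which animals shared a cage. The other liver dose groups (1, 10, 100 and 500 mg/kg) entered the estimate of the spread and are otherwise given only as values of a few gene lists by dose. Expression of 14217 genes was read as log2 levels from Affymetrix Rat Genome 230 2.0 arrays. Liver array medians lay between 6.47 and 6.62, and the lowest correlation between any pair of liver arrays, taken over genes, was 0.987. Precision is set by how few arrays each group has, and no detection calls were used, so that low levels hold an unknown share of background.

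The liver clears foreign compounds in steps. Oxidising enzymes such as cytochromes P450 and dehydrogenases, and hydrolases such as carboxylesterases, expose reactive groups. Transferases then attach glutathione, glucuronic acid, sulfate or glycine, and transporters export the products into bile or blood. The receptors CAR and PXR raise many of these genes when drugs bind, AhR raises others after planar aromatic compounds, and NRF2 raises glutathione and quinone-reducing enzymes under electrophiles. Hepatocytes also make cholesterol, lipoproteins and the growth factors that follow growth hormone, and divide their tasks between zones around the central vein and the portal tract.

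At 1000 mg/kg the liver showed 105 genes higher and 44 lower than at 0 mg/kg. A gene was called at a limma p-value, adjusted by Benjamini-Hochberg over all 14217 genes, under 0.05. The 149 called genes are 1.05% of those tested, the 105 higher genes 0.739% and the 44 lower genes 0.309%. Most changes were small: 91 called genes changed less than 1.5-fold, 43 rose and 15 fell at least 1.5-fold, and 13 rose and 7 fell at least 2-fold. For comparison, the median of the absolute log2 change over all genes was 0.097 and the SD of the log2 change 0.187. Of the called genes, 141 had arrays at 1000 mg/kg that did not overlap those at 0 mg/kg, 100 of them higher and 41 lower. Over all genes the groups did not overlap for 491 higher genes (3.45%) and 246 lower genes (1.73%). Unadjusted p-values under 0.05 were found for 1120 higher genes (7.88%) and 645 lower genes (4.54%).

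Of the 149 genes, 49 had other probe sets, 68 in all. The other probe sets moved the same way as the chosen one in 57 cases and the opposite way in 11, and none of those 11 had an unadjusted limma p under 0.05, while 32 of the 57 did. Of the called genes, 33 were called in each of the 9 fits that left out 1 array, 24 higher and 9 lower. Replicate 3 of 1000 mg/kg carried most weight: 40 genes were called without it, 39 of them among the 149. The count was 95 without replicate 1 and 82 without replicate 4 of 1000 mg/kg, and 96 and 98 without replicates 1 and 2 of 0 mg/kg. Centring every array on its median gave 70 higher and 57 lower genes, and quantile normalization 80 higher and 62 lower, so the size of the excess of rises depends on the scaling. The plot of all genes shows where 5 of the gene lists described below lie.

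**Figure D1:**
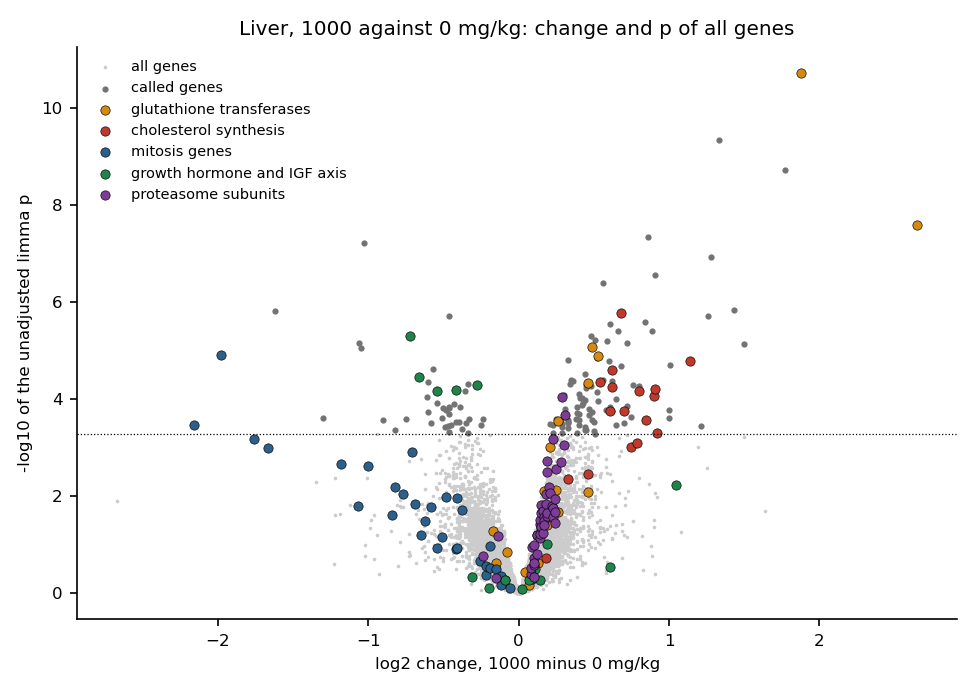
Log2 change (1000 minus 0 mg/kg, x axis) against the negative decimal logarithm of the unadjusted limma p (y axis) for 14217 genes, with called genes in dark grey, 5 gene lists in colour and a dotted line at the least significant called gene. Glutathione transferases and cholesterol synthesis genes lie among the strongest rises, mitosis genes among the largest falls, and proteasome subunits form a narrow band just right of 0.

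The response was then read through 72 gene lists, which hold 1414 of the measured genes. Of the called genes, 70 belonged to at least 1 list, 52 higher and 18 lower, and 33 lists held at least 1 called gene. The counts and the median log2 change of each list are to be read against those over all genes. There the median was 0.015, with 54.3% of genes above 0 and 45.7% below. Called higher were 0.739% of all genes and called lower 0.309%. The groups did not overlap for 3.45% higher and 1.73% lower. An unadjusted limma p under 0.05 was found for 7.88% higher and 4.54% lower. No test was made of a list as a whole.

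Glutathione transferases, which join glutathione to electrophiles, gave some of the largest rises. Of 20 measured genes, 6 rose, 0 fell and 14 were not called, against 0.739% of all genes called higher. The list median was 0.20. The list's mean deviation from the 0 mg/kg mean was -0.09 to 0.05 at 0 mg/kg, 0.14 to 0.27 at 1 mg/kg, 0.13 to 0.26 at 10 mg/kg, 0.01 to 0.27 at 100 mg/kg, 0.23 to 0.32 at 500 mg/kg and 0.32 to 0.48 at 1000 mg/kg. All arrays at 1, 10 and 500 mg/kg thus also lay above the controls. Gsta3, an alpha class enzyme, lay at 9.23, 9.54, 9.68 and 9.24 at 1000 mg/kg, against 5.50, 7.35, 6.37, 7.12 and 7.53 at 0 mg/kg. Gstt3, of the theta class, lay at 10.69, 11.01, 11.07 and 10.99 at 1000 mg/kg, against 8.94, 9.30, 9.23, 8.83 and 8.99 at 0 mg/kg. In both genes every dosed array lay above every control array, and the controls of Gsta3 spread over a range far wider than those of Gstt3. The log2 changes were 2.65 ± 0.32 (SE) for Gsta3 and 1.88 ± 0.15 for Gstt3, with limma adjusted p-values of 9.13e-05 and 2.69e-07. Rat alpha class genes are close in sequence, so the Gsta3 probe set may also read near-identical copies.

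The other rises in this family were smaller. Gstt1, also theta class, lay between 9.69 and 9.82 at 1000 mg/kg, against 9.10 to 9.34 at 0 mg/kg, a change of 0.53. Gstp1, the pi class enzyme, lay between 9.23 and 9.76 at 1000 mg/kg, against 8.87 to 9.06 at 0 mg/kg, a change of 0.49. Mgst2, a microsomal member that also makes leukotrienes, changed by 0.46, and Gsto1, an omega class enzyme that reduces dehydroascorbate, by 0.26. Their limma adjusted p-values were 0.00643, 0.00456, 0.0144 and 0.0356, and none of the 4 genes had overlapping groups. Gstt1 and Gstp1 were called in all 9 fits that left out 1 array, as were Gsta3 and Gstt3. Mgst2 was called in 7 of them and Gsto1 in 4, and Gsto1 was not called with centred arrays (limma adjusted p = 0.107). The abundant mu class was not called, with log2 changes between -0.15 for Gstm5 and 0.46 for Gstm2. The number of transferases called was 4 to 6 in fits that left out 1 array, lowest without replicate 3 of 1000 mg/kg, and 3 in a fit of both groups alone.

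Enzymes of glutathione synthesis and redox defence rose in part. Of 28 measured, 3 rose, 2 fell and 23 were not called, with a median of 0.13. The list's mean was 0.11 to 0.21 at 1000 mg/kg, against -0.06 to 0.04 at 0 mg/kg. At 1, 10, 100 and 500 mg/kg it was 0.00 to 0.14, 0.08 to 0.11, 0.05 to 0.13 and 0.03 to 0.16. All arrays at 10 and 100 mg/kg thus also lay above the controls. Nqo1, a quinone reductase, lay at 8.71, 8.55, 8.78 and 8.45 at 1000 mg/kg, against 6.85, 7.52, 7.27, 7.32 and 7.51 at 0 mg/kg. The lowest dosed array lay almost a full log2 unit above the highest control, and the change was 1.33 ± 0.13 (SE, limma adjusted p = 3.19e-06). Gsr, which regenerates reduced glutathione, lay at 8.24, 7.98, 8.62 and 8.40 at 1000 mg/kg, against 7.39 to 7.72 at 0 mg/kg, a change of 0.72 (limma adjusted p = 0.00413). Gpx4, which reduces lipid peroxides, differed little but evenly, at 11.81 to 11.91 at 1000 mg/kg against 11.62 to 11.67 at 0 mg/kg (limma adjusted p = 0.0372), and was called in none of the fits that left out 1 array. The 2 genes that fell were Prdx4, a peroxidase of the endoplasmic reticulum, at 11.63 to 11.74 against 11.87 to 11.98 at 0 mg/kg, and Hmox1, the stress-inducible heme oxygenase, at 7.78 to 7.90 against 8.12 to 8.78 at 0 mg/kg. The limma adjusted p-values of these falls were 0.0341 and 0.0375. Hmox1 lost its call without any single 1000 mg/kg array and without replicates 3 or 5 of 0 mg/kg, and Prdx4 kept it in 2 of 9 such fits.

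Single genes of related lists, and Pir outside the lists, were also called. Me1, cytosolic malic enzyme and a source of NADPH, lay at 9.73, 9.60, 9.86 and 10.10 at 1000 mg/kg, against 9.06, 8.69, 9.22, 9.01 and 9.11 at 0 mg/kg. It was the 1 called gene among 9 of NADPH supply, with a change of 0.80 (limma adjusted p = 0.0144). Akr7a3, an aldo-keto reductase that detoxifies aflatoxin dialdehyde in rat liver, lay at 11.99, 11.29, 11.88 and 11.84 at 1000 mg/kg, against 10.37, 10.84, 10.36, 10.21 and 10.65 at 0 mg/kg. It rose by 1.26 (limma adjusted p = 0.002) and was the 1 called gene among 15 of its family. Pir, pirin, an iron-binding nuclear protein known as an NRF2 target in human cells, lay at 7.97, 7.61, 8.2 and 7.87 at 1000 mg/kg, against 6.88 to 7.08 at 0 mg/kg, a change of 0.91 (limma adjusted p = 0.000482).

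The promoters of Gsta3 and Pir are shown because both genes rose with the glutathione enzymes and hold the core letters of the antioxidant response element, the DNA element bound by NRF2. Each sequence runs 5′ to 3′ on the gene's strand from 250 bases before to 50 bases after the RefSeq start, in build GRCr8. Capitals mark TGACNNNGC on either strand. The Gsta3 promoter lies at chr9:31154739-31155038 on the plus strand and the Pir promoter at chrX:33851000-33851299 on the minus strand.
Gsta3: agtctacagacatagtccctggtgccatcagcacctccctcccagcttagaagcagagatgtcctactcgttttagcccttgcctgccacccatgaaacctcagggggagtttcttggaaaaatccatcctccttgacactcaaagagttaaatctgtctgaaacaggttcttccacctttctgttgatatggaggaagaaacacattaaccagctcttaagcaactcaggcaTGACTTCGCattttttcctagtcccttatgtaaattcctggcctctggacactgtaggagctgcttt
Pir: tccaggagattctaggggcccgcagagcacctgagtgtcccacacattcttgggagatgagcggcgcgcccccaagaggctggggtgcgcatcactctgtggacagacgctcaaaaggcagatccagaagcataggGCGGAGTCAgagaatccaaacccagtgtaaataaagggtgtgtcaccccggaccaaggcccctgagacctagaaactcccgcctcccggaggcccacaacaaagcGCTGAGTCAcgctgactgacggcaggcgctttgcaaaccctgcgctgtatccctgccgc
The motif occurred in 12.1% of 33469 RefSeq promoters of this length and in 14.4% of the 11734 promoters matched to measured genes. Among genes called higher it occurred in 20 of 92 matched promoters, and among glutathione transferases in 6 of 17. These counts describe letters and not bound sites.

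Targets of the drug receptors CAR and PXR rose in part, while no measured gene of the AhR list was called. Of 20 measured genes of the CAR and PXR list, 4 rose, 0 fell and 16 were not called, with a median of 0.22. Cyp2b1, Cyp2b2, Cyp2b15, Cyp3a62, Abcb1b and Ugt1a1, written in that list, were not analysed here. Abcc3, an exporter of glucuronides into blood, lay at 6.65, 7.32, 7.53 and 7.13 at 1000 mg/kg, against 5.51, 5.39, 4.86, 5.09 and 6.09 at 0 mg/kg. Ces2c, a carboxylesterase, lay at 8.54, 8.73, 9.34 and 8.53 at 1000 mg/kg, against 7.34, 7.80, 7.37, 7.50 and 7.53 at 0 mg/kg. Neither gene overlapped between the groups. The changes were 1.77 ± 0.19 (SE) for Abcc3 and 1.28 ± 0.17 for Ces2c, with limma adjusted p-values of 9.01e-06 and 0.000234. Cyp3a23-3a1, the drug-inducible rat member of family 3A, lay at 12.88, 13.04, 13.22 and 13.01 at 1000 mg/kg, against 11.88 to 12.45 at 0 mg/kg, a change of 0.84 (limma adjusted p = 0.00239). Cyp3a18 changed by 0.48 (limma adjusted p = 0.0144), and these family members are similar enough that probes may read both. In fits that left out 1 array the list held 3 to 5 called rises. A member was called lower, 1 in each case, without replicate 1 of 0 mg/kg, among brighter genes only, with quantile normalization, with centred arrays, with a variance trend and robust fit, and with array weights.

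The measured cytochrome P450 genes as a whole moved little, and Cyp2b1, Cyp2b2 and Cyp2b15 were not among them. Of 32 measured genes of families 1 to 3, 3 rose, 0 fell and 29 were not called, and the median was 0.04. The third riser was Cyp2j4, which acts on arachidonic acid, at 9.57 to 9.83 at 1000 mg/kg against 9.05 to 9.36 at 0 mg/kg (change 0.47, limma adjusted p = 0.0269). Leaving out 1 array gave 1 to 3 rises, and 1 without replicate 3 of 1000 mg/kg. None of 9 measured genes of the AhR list was called at an adjusted p under 0.05 by limma, and 0 had an unadjusted p under 0.05. Their median control level was 5.19, 3 were among the brighter genes, and Ugt1a6 was not analysed here. Nqo1, a riser described above, was not in that list. Cyp1a1, the most AhR-responsive P450, lay at 5.01, 5.22, 6.35 and 5.32 at 1000 mg/kg, against 4.73 to 5.64 at 0 mg/kg, with overlapping groups and an adjusted p of 0.698.

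Glucuronidation gave 2 rises and sulfation no call. Of 11 genes of glucuronidation 2 rose, with a list median of 0.30, which was 0.04 over the 7 members among the brighter genes. Ugt2b34l1, annotated as a glucuronosyltransferase of family 2B, lay at 5.80, 6.31, 6.07 and 6.34 at 1000 mg/kg, against 5.13, 5.6, 5.14, 5.29 and 5.05 at 0 mg/kg (change 0.89, limma adjusted p = 0.00313). Ugdh, which makes the glucuronic acid donor, lay at 11.11 to 11.44 at 1000 mg/kg against 10.70 to 11.08 at 0 mg/kg, a change of 0.38 (limma adjusted p = 0.0341). Ugdh was called in 4 of the 9 fits that left out 1 array, losing its call without replicates 1, 3 or 4 of 1000 mg/kg or replicates 1 or 2 of 0 mg/kg, and with centred arrays. Among 16 sulfation genes 0 were called by limma, and the number with an unadjusted p under 0.05 was 3 higher and 2 lower, with a list median of -0.02. Sult2a6, a hydroxysteroid sulfotransferase, lay at 10.28, 10.66, 10.50 and 10.53 at 1000 mg/kg. Its controls lay in separate bands, at 8.29, 8.29, 9.51, 9.52 and 9.36, and with a log2 change of 1.5 its limma adjusted p was 0.0545.

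Acsm2 and Glyatl2, of acid activation and glycine conjugation, rose in every fit made. Of 7 genes that activate medium-chain and aromatic acids to CoA esters or join them to glycine, 2 rose, and the median was 0.39. Acsm2, a medium-chain acyl-CoA synthetase, lay at 8.2, 7.84, 8.53 and 7.83 at 1000 mg/kg, against 6.19, 7.16, 6.64, 6.14 and 7.25 at 0 mg/kg. Glyatl2, annotated as a glycine acyltransferase-like enzyme, lay at 9.16, 9.33, 9.33 and 8.77 at 1000 mg/kg, against 8.14, 8.37, 8.31, 8.29 and 8.31 at 0 mg/kg. The groups were apart in both, with changes of 1.43 ± 0.22 (SE) and 0.86 ± 0.11 and limma adjusted p-values of 0.00194 and 0.000132. Both were called in all 9 fits that left out 1 array and in a fit of both groups alone. A list of 15 carboxylesterases, paraoxonases, flavin monooxygenases and epoxide hydrolases held 3 rises, the carboxylesterase Ces2c, the flavin monooxygenase Fmo5 by 0.75 and the microsomal epoxide hydrolase Ephx1 by 0.33, with a list median of 0.22. Leaving out 1 array left 1 to 3 of these, 1 being the count without replicate 3 of 1000 mg/kg or replicates 1 or 3 of 0 mg/kg. A fit of both groups alone also called 1.

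Alcohol and aldehyde dehydrogenases changed in both directions. Of 37 measured, 4 rose, 2 fell and 31 were not called, with a median of 0.07. The number of rises was 2 without replicate 3 of 1000 mg/kg and 6 without replicate 5 of 0 mg/kg. Adh7, a class IV alcohol dehydrogenase that also oxidises retinol, lay at 7.61, 7.71, 7.75 and 7.18 at 1000 mg/kg, against 5.77, 6.35, 6.43, 6.10 and 5.68 at 0 mg/kg (change 1.5 ± 0.26 SE, limma adjusted p = 0.00418). Adh1c, the main liver alcohol dehydrogenase, was already near the top of the scale, at 13.47 to 13.63 at 1000 mg/kg against 12.80 to 13.11 at 0 mg/kg, a change of 0.62. Another Adh1c probe set, at 8.19 in controls, gave 1.30, so the size of this change is not settled. Aldh1l1, the cytosolic formyltetrahydrofolate dehydrogenase, rose by 0.61 and Aldh1a1, a retinaldehyde dehydrogenase, by 0.58, with limma adjusted p-values of 0.0025 and 0.0279.

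The falls were in mitochondrial forms of the same families. Aldh1b1 lay at 6.99, 6.77, 6.51 and 7.04 at 1000 mg/kg, against 8.46, 8.05, 8.65, 7.59 and 7.89 at 0 mg/kg (change -1.30 ± 0.30 SE, limma adjusted p = 0.0341). Aldh1l2, the mitochondrial counterpart of Aldh1l1, lay at 9.84, 10.15, 9.98 and 9.66 at 1000 mg/kg, against 10.38, 10.10, 10.37, 10.39 and 10.41 at 0 mg/kg (change -0.42, limma adjusted p = 0.0356). Its groups overlapped through replicate 2 of each. Both falls were called in 2 of the 9 fits that left out 1 array.

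Transporters showed single changes. Among 37 ABC transporters Abcc3 and Abcb6, a porphyrin transporter (change 0.33), rose, and Abca8a, which moves lipids and organic anions, fell by 0.36. Among 36 uptake carriers 0 rose and 1 fell. That gene was Slc22a8, an organic anion transporter, at 9.91, 9.35, 9.07 and 9.59 at 1000 mg/kg, against 10.11, 10.05, 10.19, 10.17 and 9.89 at 0 mg/kg. Replicate 1 of the dosed group lay within the control range, and the limma adjusted p was 0.0141. Without replicate 3 of 1000 mg/kg Slc22a8, Abcb6 and Abca8a were not called (limma adjusted p = 0.0717, 0.0539 and 0.0551), nor were they with both groups fitted alone. Abca8a also missed the threshold without replicate 4 of 1000 mg/kg (limma adjusted p = 0.0592).

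Most cholesterol synthesis enzymes rose. Of 17 measured enzymes 12 rose, 0 fell and 5 were not called, all 17 log2 changes were above 0, and the median was 0.70. Over all genes 0.739% were called higher. In 15 of the 17 the groups did not overlap with the dosed arrays higher, against 3.45% of all genes. The pathway builds isoprenoid units from acetyl-CoA, joins them to squalene and closes and trims the sterol ring, and rises came at each stage. Acat2, the cytosolic thiolase at its start, lay at 9.66, 9.81, 10.44 and 10.21 at 1000 mg/kg, against 8.89, 8.19, 9.14, 9.03 and 9.17 at 0 mg/kg. Fdft1, which makes squalene, lay at 10.50, 10.78, 10.93 and 10.83 at 1000 mg/kg, against 10.17, 9.84, 10.12, 9.99 and 10.26 at 0 mg/kg. Dhcr7, the last step to cholesterol, lay at 10.97, 11.09, 11.78 and 11.29 at 1000 mg/kg, against 10.80, 9.83, 10.55, 10.55 and 10.68 at 0 mg/kg. No dosed array of these 3 genes reached down to a control array. Their changes were 1.14, 0.68 and 0.80, with limma adjusted p-values of 0.0071, 0.00194 and 0.0163. The other rises ran from 0.54 for Ebp, a sterol isomerase, to 0.92 for Sqle, squalene epoxidase, and took in Mvk, Pmvk, Idi1, Cyp51, Tm7sf2, Msmo1 and Hsd17b7. Sqle lost its call without any single 1000 mg/kg array, and without replicates 1, 2, 3 or 4 of 0 mg/kg. It was also not called with quantile normalization or with centred arrays (limma adjusted p = 0.0505 and 0.0575). The 5 enzymes not called had changes from 0.18 for Nsdhl to 0.79 for Mvd.

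The mean deviation of this list from the 0 mg/kg mean was 0.46, 0.60, 0.99 and 0.73 in the 4 dosed arrays, against 0.13, -0.47, 0.15, -0.05 and 0.24 in the 5 control arrays. The groups did not overlap, but replicate 3 of 1000 mg/kg was the highest dosed array and replicate 2 of 0 mg/kg the lowest control. At 500 mg/kg, measured against the same controls, the list ranged from 0.10 to 0.74. Without replicate 3 of 1000 mg/kg 1 of the 17 enzymes was called, and in a fit of both groups alone 1. Without replicate 4 of 1000 mg/kg or replicates 2 or 4 of 0 mg/kg the number was 8. The median was 0.62 to 0.81 over all fits that left out 1 array. Most of the 14 matched promoters of these enzymes lack TCACNNCAC, one form of the sterol response element bound by SREBP factors, which was present in 2, against 3.78% of all promoters. That of Hsd17b7, a ketoreductase of the pathway, holds it and is shown for that reason, at chr13:84722705-84723004 on the minus strand of GRCr8, with the motif in capitals.
Hsd17b7: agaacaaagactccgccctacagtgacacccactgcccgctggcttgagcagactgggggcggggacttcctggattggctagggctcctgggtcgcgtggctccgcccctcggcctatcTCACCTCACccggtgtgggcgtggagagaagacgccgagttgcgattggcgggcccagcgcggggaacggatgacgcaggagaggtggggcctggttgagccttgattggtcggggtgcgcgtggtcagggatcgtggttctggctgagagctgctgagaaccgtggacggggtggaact
Hsd17b7 lay at 9.77, 9.92, 10.37 and 9.90 at 1000 mg/kg, against 9.31, 8.46, 9.27, 9.07 and 9.59 at 0 mg/kg (change 0.85, limma adjusted p = 0.0341). Its call was lost without replicates 2, 3 or 4 of 1000 mg/kg or replicates 1, 2, 3 or 4 of 0 mg/kg. The mean of its probe sets was not called either (limma adjusted p = 0.0592).

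Other genes of sterol control did not pass. None of 13 was called by limma, 2 had an unadjusted p under 0.05 with a positive change and 1 with a negative one, and the median was -0.02. Srebf2, which encodes the transcription factor of cholesterol synthesis, lay at 7.94, 8.19, 8.26 and 8.01 at 1000 mg/kg, against 7.91, 7.52, 7.86, 7.70 and 7.82 at 0 mg/kg (log2 change 0.34, limma adjusted p = 0.108). Insig1, which holds that factor back when sterols are plentiful, lay at 11.17 to 11.87 at 1000 mg/kg, inside the wide range of 9.79 to 11.90 at 0 mg/kg (limma adjusted p = 0.341).

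Fatty acid synthesis was mixed. Of 20 genes 2 rose and 1 fell, with a median of 0.15. Besides Me1, Acss2, which makes acetyl-CoA from acetate, rose by 0.70 (limma adjusted p = 0.0364). Elovl5, an elongase of polyunsaturated fatty acids, lay at 12.14 to 12.26 at 1000 mg/kg against 12.46 to 12.61 at 0 mg/kg, a fall of 0.34 (limma adjusted p = 0.0144) that was called in all 9 fits that left out 1 array. The list's mean ranged from -0.03 to 0.41 in dosed arrays and from -0.45 to 0.41 in control arrays, so the groups overlapped fully. Neither rise was called without replicates 3 or 4 of 1000 mg/kg. Acss2 was also not called without replicate 2 of that dose or replicates 1, 2 or 3 of 0 mg/kg.

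Fatty acid oxidation and peroxisomes showed few calls. Of 36 PPAR alpha targets and oxidation genes 2 rose and 0 fell, with a median of 0.04. Decr2, a peroxisomal dienoyl-CoA reductase, lay at 10.63 to 10.79 at 1000 mg/kg against 10.11 to 10.44 at 0 mg/kg, a change of 0.48 (limma adjusted p = 0.0036). Cd36, a fatty acid receptor, lay at 7.33, 7.26, 7.49 and 7.67 at 1000 mg/kg, against 6.53, 6.55, 7.06, 6.81 and 6.99 at 0 mg/kg, a change of 0.65 (limma adjusted p = 0.0375), and was called in 3 of 9 fits that left out 1 array. Of 20 peroxisome assembly factors 18 had changes above 0, and Pex19, the carrier of peroxisomal membrane proteins, was called (change 0.29, limma adjusted p = 0.0483). Pex19 was called in 1 of 9 fits without 1 array, and not with a replicate block, with quantile normalization, with both groups fitted alone or without replicate 3 of 500 mg/kg. With centred arrays 15 of the 20 were above 0 and 0 were called.

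Lipid storage and transport added 2 calls. Cidea, a lipid droplet protein, lay at 8.51, 8.09, 8.69 and 8.81 at 1000 mg/kg, against 6.52, 7.43, 7.45, 7.48 and 7.67 at 0 mg/kg. It was the 1 called gene among 20 of lipid droplets and lipases, and passed in 2 of 9 fits that left out 1 array. Apoa4, an apolipoprotein of chylomicrons and high density lipoprotein, lay at 10.96, 9.86, 9.79 and 10.88 at 1000 mg/kg, against 11.55, 11.23, 11.60, 11.42 and 11.32 at 0 mg/kg. The dosed arrays formed a high and a low pair, all below the controls, and the fall of 1.05 was called in all 9 such fits (limma adjusted p = 0.00474). Among 23 apolipoproteins and lipoprotein genes 1 was called lower, 5 had an unadjusted p under 0.05 with a negative change and 0 with a positive one. Apoa1, the main protein of high density lipoprotein, lay at 12.97 to 13.27 at 1000 mg/kg and at 13.31 to 13.58 at 0 mg/kg, with a limma adjusted p of 0.0641.

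Bile acid genes were called only through Abcc3 and Slc27a5, the bile acid CoA ligase (change 0.42, limma adjusted p = 0.02), 2 of 23. Slc27a5 kept its call in 4 of 9 fits without 1 array, losing it without replicates 1, 2 or 3 of 1000 mg/kg or replicates 1 or 2 of 0 mg/kg. In heme and iron metabolism, 2 of 19 rose, Uros, uroporphyrinogen synthase, by 0.53 and Blvrb, biliverdin reductase B, by 0.44, beside the fall of Hmox1. Both rises lost their call when replicate 4 of 1000 mg/kg was omitted and when both groups were fitted alone, and Uros was called in 4 of the 9 fits that left out 1 array. Among 14 genes of gluconeogenesis Gpt, alanine aminotransferase, lay at 9.90, 9.52, 9.65 and 9.48 at 1000 mg/kg, against 8.36, 9.16, 8.35, 9.0 and 8.30 at 0 mg/kg (change 1.00, limma adjusted p = 0.0341). The controls of Gpt lay in 2 bands, and its call held in 2 of 9 fits that left out 1 array. Pc, pyruvate carboxylase, fell by 0.43, at 9.55 to 9.95 at 1000 mg/kg against 10.03 to 10.27 at 0 mg/kg (limma adjusted p = 0.0242). Of 37 genes of amino acid breakdown 1 was called, Amt, of the glycine cleavage system (change 0.25), which passed in 1 of 9 fits without 1 array and missed the threshold with quantile normalization (limma adjusted p = 0.124), with centred arrays (0.107) and with both groups fitted alone (0.184). By limma 0 of 12 urea cycle genes, 0 of 18 of glycolysis, glycogen and fructose, and 0 of 19 of the methionine cycle were called, with 1, 2 and 1 members at an unadjusted p under 0.05 and a positive change and 1, 0 and 0 with a negative one.

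Igf1, Ghr and the serum proteins Igfbp3, Igfals and Serpina6 fell, while other members of the same list lay above 0. The list held 15 measured genes for growth hormone signalling and IGF proteins, with Serpina6, which is neither, among them. Of these 5 fell, Serpina6 included, 0 rose and 10 were not called, against 0.309% of all genes called lower. There were 7 changes above 0 and a median of -0.09. That median was 0.06 with a replicate block or without replicate 5 of 0 mg/kg. The change furthest from 0 was that of Igfbp1, an IGF carrier that insulin lowers, at 11.21, 11.10, 10.30 and 10.11 at 1000 mg/kg, against 10.18, 10.51, 9.09, 8.76 and 9.58 at 0 mg/kg. Its groups overlapped, and the log2 change of 1.05 was not called (limma adjusted p = 0.174). Igf1, the main growth factor made by liver, lay at 12.97, 12.97, 12.93 and 12.97 at 1000 mg/kg, against 13.23, 13.21, 13.24, 13.32 and 13.18 at 0 mg/kg. Ghr, the growth hormone receptor, lay at 11.54, 11.66, 11.33 and 11.52 at 1000 mg/kg, against 11.95, 11.90, 12.05, 11.81 and 11.94 at 0 mg/kg. The dosed arrays were below every control in both genes, with changes of -0.28 and -0.42 (limma adjusted p = 0.0144 and 0.0163).

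Igfbp3, which carries IGF in serum, lay at 9.46, 9.30, 9.48 and 9.14 at 1000 mg/kg, against 9.84 to 10.17 at 0 mg/kg (change -0.66). Igfals, the third part of the serum IGF complex, lay at 9.52, 9.68, 9.52 and 9.44 at 1000 mg/kg, against 9.86 to 10.47 at 0 mg/kg (change -0.54). Serpina6, the corticosteroid carrier of serum, lay at 11.89, 11.99, 11.34 and 11.75 at 1000 mg/kg, against 12.41 to 12.61 at 0 mg/kg (change -0.72). Their limma adjusted p-values were 0.0127, 0.0163 and 0.0036. The other probe sets of Igf1 gave -0.44 and -0.33 and that of Igfbp3 -0.64, while the second Ghr probe set gave -0.14 with an unadjusted limma p of 0.187. The count of falls in the list, Serpina6 included, fell to 2 without replicate 3 and to 3 without replicate 4 of 1000 mg/kg. Signalling members were not called, with log2 changes of 0.11 for Stat5b, 0.07 for Jak2 and -0.31 for Socs2. Of 18 sex-dependent liver genes 0 were called by limma, with 1 higher and 2 lower at an unadjusted p under 0.05. Of 18 glucocorticoid-responsive genes Serpina6 was the 1 called, and of 12 thyroid-responsive genes Me1.

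**Figure D2:**
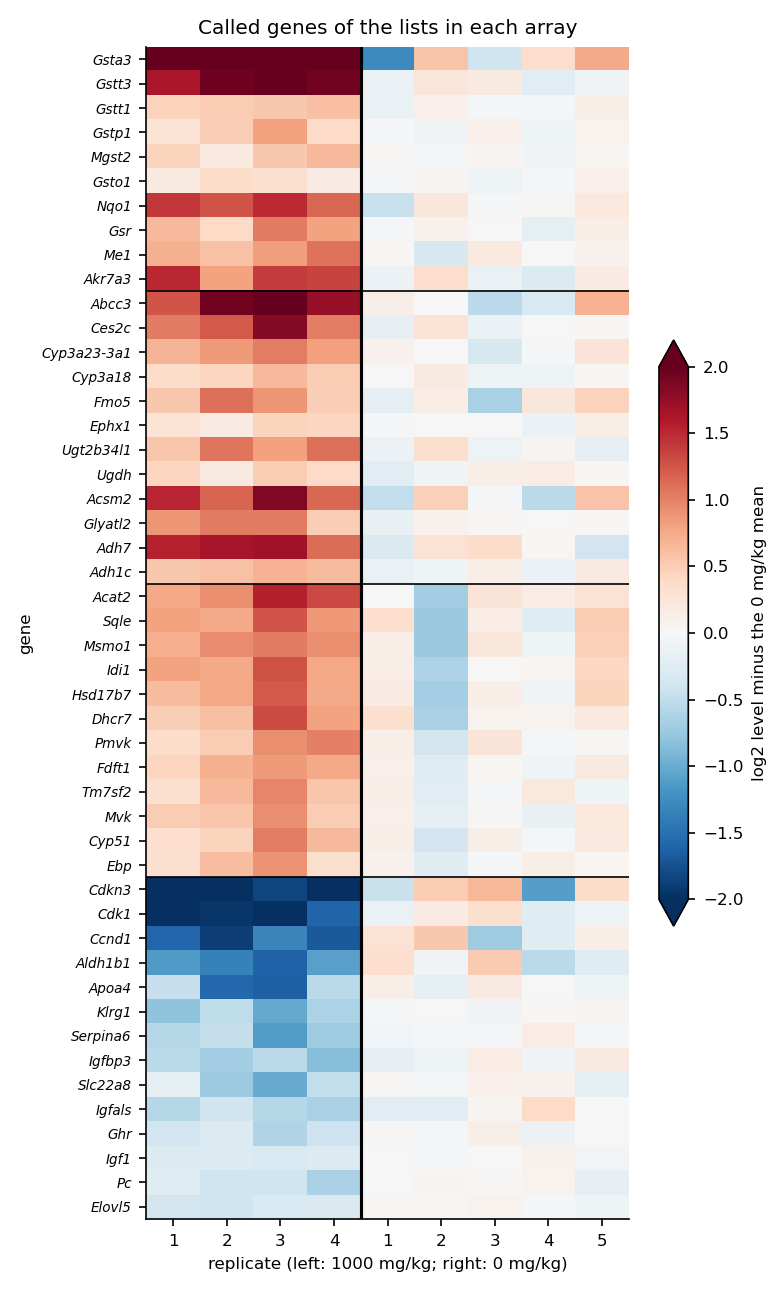
Each row is a called gene of the lists and each column an array, 1000 mg/kg left and 0 mg/kg right of the black line, with the colour giving the log2 level minus the 0 mg/kg mean (scale ends at 2 in each direction, larger values take the end colour). Row blocks, from the top, are glutathione and redox genes, drug metabolism, cholesterol synthesis and lower genes, and replicate 2 of 0 mg/kg is the lowest control in most cholesterol rows.

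Cdkn3 and Cdk1, of mitosis, and Ccnd1, of G1 phase, had the largest falls among called genes. Cdk1, the kinase that starts mitosis, lay at 4.06, 4.16, 3.77 and 4.51 at 1000 mg/kg, against 5.97, 6.27, 6.42, 5.86 and 6.00 at 0 mg/kg. Cdkn3, a phosphatase of cyclin-dependent kinases, lay at 3.72, 3.98, 4.30 and 3.90 at 1000 mg/kg, against 5.69, 6.65, 6.80, 5.03 and 6.51 at 0 mg/kg. The dosed arrays of both lay below all controls, by changes of -1.98 ± 0.36 (SE) and -2.16 ± 0.51 (limma adjusted p = 0.00625 and 0.0375), at levels not shown to exceed background. Cdk1 and Ccnd1 were called in all 9 fits without 1 array, and Cdkn3 in 1 of them. Cdkn3 was also not called with a replicate block (limma adjusted p = 0.06) or with a variance trend and robust fit (0.0566). Of 32 mitosis genes these 2 fell and 30 were not called. The median was -0.52, 31 changes were below 0, and in 18 genes the groups did not overlap with the dosed arrays lower, against 1.73% of all genes. The median control level of the list was 4.96, and 2 of its genes were among the brighter genes of the array.

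The count of mitosis calls rested on an array of another dose. The list's mean deviation was -0.65, -0.67, -0.73 and -0.59 in the 1000 mg/kg arrays, against -0.13, 0.08, 0.19, -0.15 and 0.00 in the controls. At 500 mg/kg replicate 3 stood at 1.13 while the other 3 arrays lay between -0.38 and -0.19. The residual spread in the fit includes that array. Without it 8 mitosis genes were called lower by limma, and in a fit of both groups alone 10. The 8 were Cdk1, Cdkn3, Ccna2, Ccnb2, Kif11, Mki67, Prc1 and Ube2c. Ccnb2, a mitotic cyclin, averaged 4.35 ± 0.47 at 1000 mg/kg (SD, n = 4) and 6.02 ± 0.48 at 0 mg/kg (SD, n = 5), with an adjusted p of 0.071 in the fit with all arrays and 0.0153 without that array, both from limma. Mki67, the proliferation marker, averaged 3.40 ± 0.24 at 1000 mg/kg and 4.58 ± 0.33 at 0 mg/kg (limma adjusted p = 0.106 and 0.0408). Leaving out 1 array of either group gave 1 or 2 calls.

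Of 27 DNA replication genes 0 were called by limma and 0 had an unadjusted p under 0.05, and the median was -0.03. Of their log2 changes 19 were below 0, 20 with quantile normalization and 22 with centred arrays, and the difference from the mitosis list was not tested. Fen1, a flap endonuclease, lay at 5.6 to 5.96 at 1000 mg/kg against 5.97 to 6.20 at 0 mg/kg (limma adjusted p = 0.402). Ccnd1, cyclin D1 of G1 phase, was the 1 called gene among 21 cyclins, E2F factors and kinase inhibitors of G1, and among 12 WNT targets. It lay at 8.04, 7.74, 8.31 and 7.95 at 1000 mg/kg, against 9.92, 10.16, 8.91, 9.39 and 9.76 at 0 mg/kg. No array overlapped, and its 3 probe sets gave -1.62, -1.34 and -1.44 (limma adjusted p = 0.00194 for the first).

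The promoters of Cdk1 and Cdkn3 are shown because most mitosis genes hold the same pair of motifs, the CCAAT box and TTTGAA, the core of the cell cycle homology region. The Cdk1 promoter lies at chr20:19265043-19265342 and the Cdkn3 promoter at chr15:22502136-22502435, both on the plus strand of GRCr8, with both motifs in capitals on either strand.
Cdk1: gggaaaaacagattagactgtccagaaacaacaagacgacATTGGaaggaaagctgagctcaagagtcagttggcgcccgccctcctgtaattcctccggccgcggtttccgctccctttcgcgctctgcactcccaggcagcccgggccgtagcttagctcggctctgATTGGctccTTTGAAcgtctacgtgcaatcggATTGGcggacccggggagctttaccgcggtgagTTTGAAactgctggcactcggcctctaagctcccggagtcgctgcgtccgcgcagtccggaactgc
Cdkn3: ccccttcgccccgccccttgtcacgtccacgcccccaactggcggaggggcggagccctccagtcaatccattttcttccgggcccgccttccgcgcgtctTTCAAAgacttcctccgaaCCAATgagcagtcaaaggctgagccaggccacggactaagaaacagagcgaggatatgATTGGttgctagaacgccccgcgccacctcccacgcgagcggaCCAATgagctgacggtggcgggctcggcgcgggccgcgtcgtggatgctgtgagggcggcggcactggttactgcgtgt
Of 26 mitosis genes with a matched RefSeq promoter, 23 held CCAAT and 20 held TTTGAA, against 37.5% and 18.3% of all promoters. Of 25 DNA replication genes, 15 held CCAAT and 1 held TTTGAA. The motifs do not overlap each other in these letters, and no binding was measured.

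**Figure D3:**
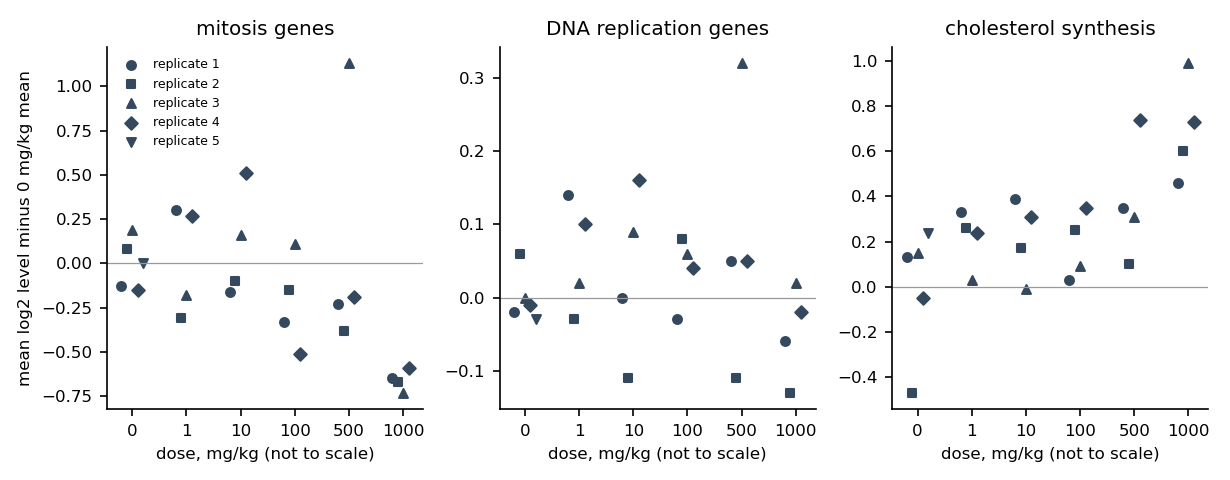
Mean log2 level of each list minus its 0 mg/kg mean (y axes, scaled separately) in every liver array by dose in mg/kg (x axes, not to scale), with marker shapes for the replicate number. At 1000 mg/kg the 4 mitosis means lie between -0.73 and -0.59, below all other arrays, replicate 3 of 500 mg/kg stands at 1.13, and the DNA replication means at 1000 mg/kg overlap the controls.

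Most proteasome genes had small positive changes, of which 2 were called. Of 46 genes for subunits, regulators and assembly factors of the proteasome, which breaks down proteins, 2 rose, 0 fell and 44 were not called. The median was 0.16, and 43 changes were above 0, as they were with quantile normalization and with centred arrays. An unadjusted limma p under 0.05 with a positive change was found for 29 of the 46, against 7.88% of all genes. Groups that did not overlap, with the dosed arrays higher, were found for 15, against 3.45% of all genes. Psmc3, an ATPase of the regulatory particle, lay at 10.44, 10.29, 10.42 and 10.41 at 1000 mg/kg, against 10.06, 10.21, 10.04, 10.14 and 10.04 at 0 mg/kg. Psmd8, a lid subunit, lay at 9.76, 9.70, 9.94 and 9.86 at 1000 mg/kg, against 9.46 to 9.58 at 0 mg/kg. They rose by 0.29 and 0.31 with no overlap, and the limma adjusted p-values were 0.0194 and 0.0307. The 3 members below 0 included Psmb8 and Psmb9, the interferon-inducible subunits, at -0.15 and -0.24. The list's mean was 0.14, 0.08, 0.20 and 0.19 in the dosed arrays, against -0.07 to 0.05 in the controls. Measured against the same controls, the list's mean was 0.08 to 0.15 at 1 mg/kg, 0.09 to 0.13 at 10 mg/kg, 0.05 to 0.25 at 100 mg/kg and 0.04 to 0.15 at 500 mg/kg, so that the values at 1000 mg/kg were not set apart from those of lower doses. Leaving out 1 array gave 0 to 4 calls, 0 without replicates 1, 3 or 4 of 1000 mg/kg and 4 without replicate 2.

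Protein synthesis and mitochondria moved less. Of 73 mitochondrial ribosomal proteins 0 were called by limma and 10 had an unadjusted p under 0.05 with a positive change. Their median was 0.09, with 66 changes above 0, and 51 with quantile normalization or 56 with centred arrays. The list's mean was 0.06 to 0.14 at 1000 mg/kg, against -0.05 to 0.04 at 0 mg/kg. At 1, 10, 100 and 500 mg/kg it was 0.06 to 0.16, 0.07 to 0.14, 0.07 to 0.19 and 0.04 to 0.15. Values as high as at 1000 mg/kg were thus found at each lower dose. Mrps27 lay at 7.60 to 8.00 at 1000 mg/kg against 7.25 to 7.59 at 0 mg/kg (limma adjusted p = 0.1). Of 43 cytosolic ribosomal proteins 0 were called by limma, 1 had an unadjusted p under 0.05, and 31 changes were below 0. Of 81 subunits of the respiratory chain and ATP synthase 0 were called by limma, with 9 higher and 1 lower at an unadjusted p under 0.05 and a median of 0.03. Timm10b, of the inner membrane import machinery, was the 1 called gene among 32 of mitochondrial import (change 0.33, limma adjusted p = 0.0413), and passed in 1 of 9 fits that left out 1 array. For 19 aminoacyl-tRNA synthetases limma gave 0 calls and 0 unadjusted p-values under 0.05, although 17 changes were above 0.

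Stress and inflammation lists held no call by limma. This was true of 30 genes of the integrated stress and unfolded protein response, 17 heat shock proteins, 16 p53 targets, 30 NF-kB genes, 23 interferon-induced genes, 9 class II antigen presentation genes, 21 acute phase proteins and 20 complement factors. The numbers with an unadjusted p under 0.05 were 2, 2, 1, 4, 1, 0, 5 and 3 genes. Orm1, an acute phase protein, came closest to a call. It lay at 12.62, 12.92, 12.96 and 13.09 at 1000 mg/kg, against 12.11, 12.36, 11.89, 12.44 and 12.08 at 0 mg/kg, with no overlap, a log2 change of 0.72 and a limma adjusted p of 0.0506. Gdf15, a stress cytokine, lay at 6.05, 8.02, 5.84 and 6.48 at 1000 mg/kg, against 5.34 to 6.53 at 0 mg/kg, and its single high array was replicate 2 (limma adjusted p = 0.383). Hspb1, a small heat shock protein, lay at 7.69 to 8.80 at 1000 mg/kg and 7.01 to 8.00 at 0 mg/kg (limma adjusted p = 0.263). Sesn1, a p53 target, lay at 7.64 to 8.00 at 1000 mg/kg and 7.16 to 7.43 at 0 mg/kg (limma adjusted p = 0.115). Of 18 clock genes and 20 immediate early genes 0 were called by limma, with 2 and 2 at an unadjusted p under 0.05. The immediate early list averaged -0.36, 0.47, -0.19 and -0.28 in the dosed arrays, so that replicate 2 of 1000 mg/kg stood above the others.

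**Figure D4:**
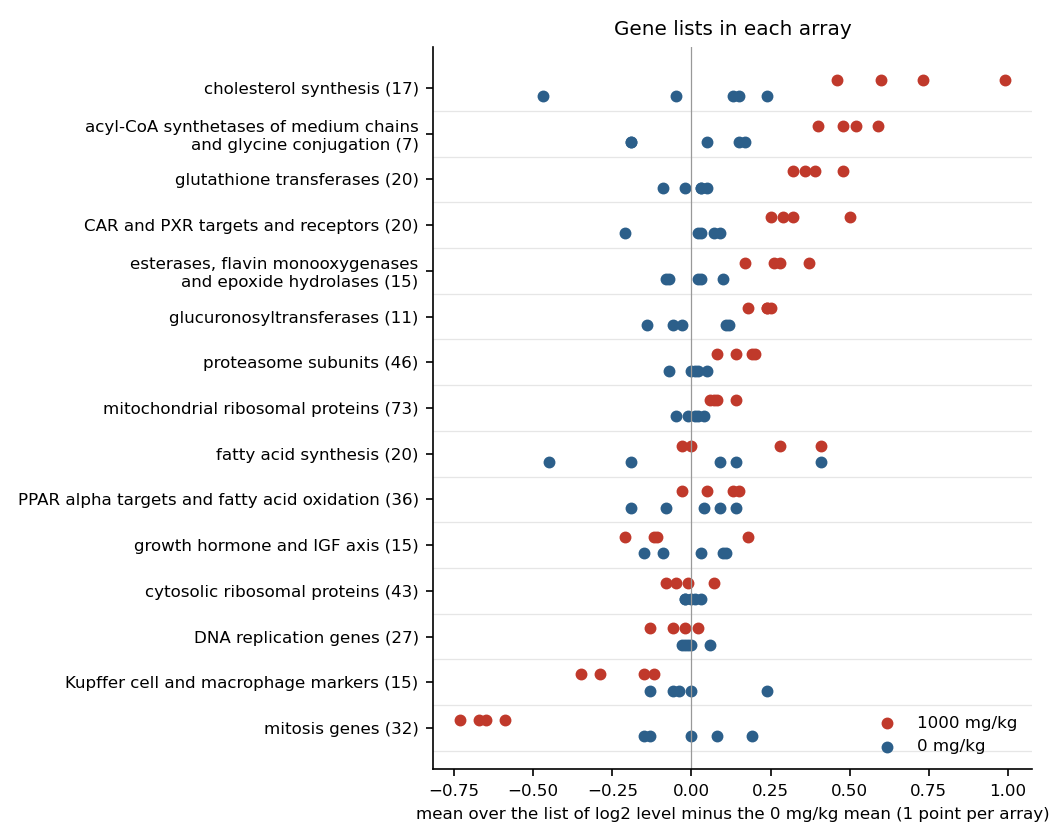
Mean over each list of the log2 level minus the 0 mg/kg mean (x axis) for every array, with 1000 mg/kg above 0 mg/kg in each row and the number of genes in brackets. In 9 of the 15 lists, among them cholesterol synthesis, glutathione transferases, proteasome subunits and mitosis genes, the 1000 mg/kg arrays do not overlap the controls. Lower doses are not drawn.

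Zonation lists held changes in both directions with medians near 0. Of 27 pericentral hepatocyte genes Aldh1a1 rose and 0 fell, with a median of 0.03. The rise of Aldh1a1 was called in 4 of 9 fits without 1 array, and the list had 0 calls without replicates 2 or 3 of 1000 mg/kg, without replicates 1 or 3 of 0 mg/kg, and with both groups fitted alone. An unadjusted limma p under 0.05 was found for 6 higher and 5 lower members, against 7.88% and 4.54% of all genes. Groups that did not overlap were found for 2 and 3, against 3.45% and 1.73%. Glul, glutamine synthetase of the innermost pericentral layer, lay at 11.43, 11.05, 10.96 and 10.88 at 1000 mg/kg, against 11.09, 11.51, 11.28, 11.53 and 11.45 at 0 mg/kg, with overlap and a limma adjusted p of 0.32. Cyp2e1, Cyp1a2 and Cyp7a1, pericentral enzymes, had log2 changes of 0.05, 0.02 and 0.18, with limma adjusted p-values of 0.856, 0.96 and 0.915. Of 32 periportal genes 4 fell and 0 rose, against 0.309% of all genes called lower, with a median of -0.03. The unadjusted p was under 0.05 for 4 higher and 6 lower members. The 4 were Apoa4, Igf1, Igfals and Aldh1b1, which also stand in the lists above. The urea cycle genes that define the periportal zone were not called, with log2 changes of 0.21 for Ass1, 0.10 for Arg1 and -0.05 for Cps1. Without replicate 3 of 1000 mg/kg 1 periportal gene was called, and without replicate 4 the number was 2.

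Markers of cell types gave 1 call among 15 lists. Hepatocyte markers averaged between 12.76 and 12.85 at 1000 mg/kg and between 12.75 and 12.96 at 0 mg/kg over 12 genes, with Alb at 14.65 to 14.71 and 14.67 to 14.72. Klrg1, a receptor of T and NK cells, lay at 6.56, 6.85, 6.33 and 6.72 at 1000 mg/kg, against 7.29 to 7.41 at 0 mg/kg. The fall of 0.75 (limma adjusted p = 0.0341) was called in 1 of 9 fits that left out 1 array, and the defining T cell genes Cd3e, Cd3d and Cd3g reached at most 5.08, 3.88 and 4.73 in any array, with limma adjusted p-values of 0.97, 0.79 and 0.944. In whole liver, fewer cells of a type and less RNA per cell cannot be told apart.

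Kupffer cell and macrophage markers lay below 0 without a call. All 15 log2 changes were below 0 with the values as deposited, with quantile normalization and with centred arrays, and the median was -0.23. An unadjusted limma p under 0.05 was found for 5 with a negative change, against 4.54% of all genes. Cd5l, a secreted macrophage protein, lay at 10.06, 9.47, 9.43 and 9.85 at 1000 mg/kg, against 9.91, 10.24, 10.58, 10.17 and 10.38 at 0 mg/kg (limma adjusted p = 0.0955). Clec4f, the Kupffer cell lectin, lay at 10.77, 10.33, 10.37 and 10.43 at 1000 mg/kg, against 10.57 to 10.85 at 0 mg/kg (limma adjusted p = 0.285). The list's mean was -0.12, -0.35, -0.29 and -0.15 in the dosed arrays, against -0.13, -0.06, 0.24, 0.00 and -0.04 in the controls, so the groups touched. At the doses between, the list's mean was -0.17 to -0.02 at 1 mg/kg, -0.41 to -0.07 at 10 mg/kg, -0.05 to 0.11 at 100 mg/kg and -0.22 to 0.14 at 500 mg/kg, so values as low as at 1000 mg/kg were also found at 10 mg/kg. Without replicate 3 of 0 mg/kg, the highest control, the median was -0.12.

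Other cell type lists held no call. Medians were 0.07 over 9 cholangiocyte markers, -0.06 over 17 of sinusoidal endothelium, -0.05 over 14 of stellate cells and -0.13 over 17 of fibroblasts and matrix, each with 0 calls by limma and with 0, 1, 3 and 6 members at an unadjusted p under 0.05. Lox, a collagen cross-linking enzyme, lay at 7.19, 5.44, 6.05 and 5.83 at 1000 mg/kg, against 7.46, 7.68, 7.36, 7.42 and 6.82 at 0 mg/kg, with a log2 change of -1.22 and a limma adjusted p of 0.147. Replicate 1 of the dosed group stood among the controls. Neutrophil, mast cell, mesothelium, adipocyte and exocrine pancreas lists averaged at most 5.65 in any array and held 0 calls by limma, with 0, 2, 0, 0 and 3 members at an unadjusted p under 0.05. B cell, erythroid and platelet lists held 0 calls as well, with 2, 1 and 1 such members. Medians were -0.21 for mast cells, -0.12 for B cells, -0.11 for neutrophils, -0.10 for platelets, -0.08 for erythroid cells and -0.06 for exocrine pancreas. The mean of the mast cell list was -0.39 to -0.14 at 1000 mg/kg, against -0.09 to 0.07 at 0 mg/kg, and that of exocrine pancreas -0.15 to -0.07 at 1000 mg/kg, against -0.06 to 0.09 at 0 mg/kg, so neither overlapped between the groups. At 1, 10, 100 and 500 mg/kg the lowest mast cell means were -0.20, -0.18, -0.52 and -0.26. Those of exocrine pancreas were -0.13, -0.14, -0.15 and -0.16. Values within or below the 1000 mg/kg range were thus also found at each dose between.

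**Figure D5:**
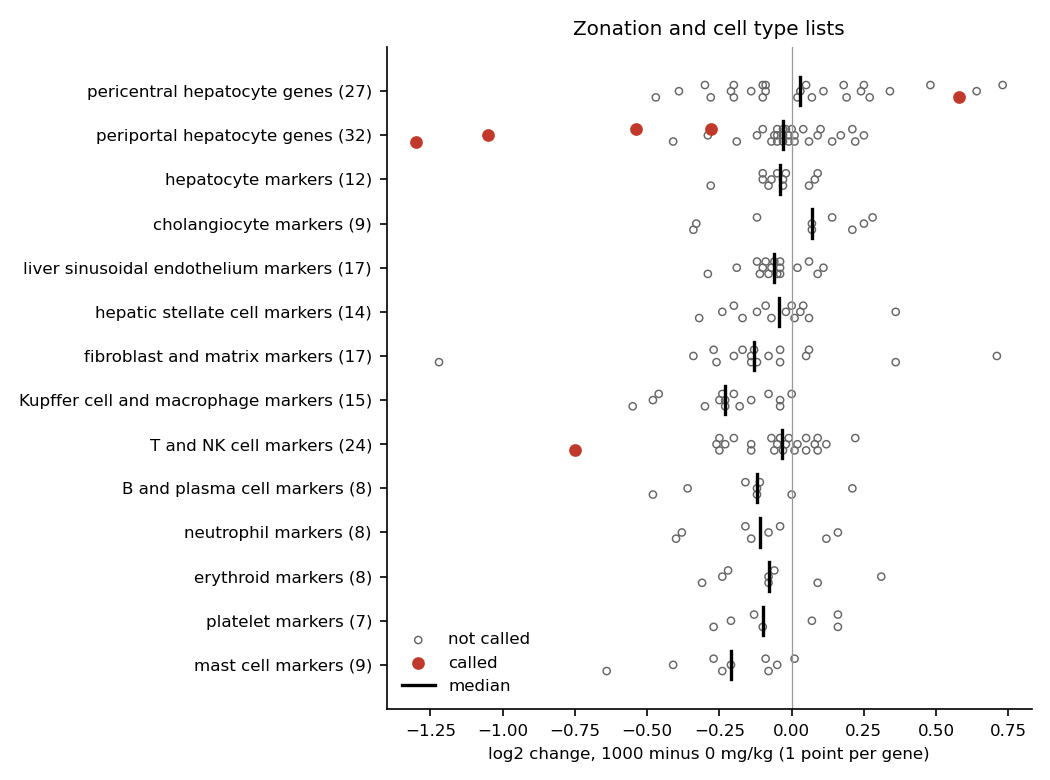
Log2 change (1000 minus 0 mg/kg, x axis) of each member of 2 zonation lists and 12 cell type lists (rows, number of genes in brackets), with called genes filled in red, other genes as open circles and the median as a black bar. The 4 called periportal genes lie left of 0, and all 15 Kupffer cell and macrophage markers are at or left of 0.

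Further genes stand outside the lists, at ranks 11 to 20 by size of change among called genes without overlap. Among rises, Slc44a4, a choline-like transporter by name, lay at 5.73, 5.85, 6.32 and 6.27 at 1000 mg/kg, against 5.06, 4.96, 5.49, 5.11 and 4.56 at 0 mg/kg, a change of 1.01. Spmip11, named as a sperm microtubule inner protein, rose by 1.00, with replicate 3 of 1000 mg/kg at 6.96 and the other dosed arrays at 5.80 to 6.05. The rest of these ranks were filled by Gpt, Sqle, Pir, Msmo1, Idi1, Ugt2b34l1, Glyatl2 and Hsd17b7, described above. Among falls, Col14a1, a fibril-associated collagen, lay at 8.22, 7.67, 8.01 and 8.08 at 1000 mg/kg, against 8.46 to 8.72 at 0 mg/kg, a change of -0.57 (limma adjusted p = 0.00931). Afp, the fetal serum protein, lay at 7.82, 7.66, 8.03 and 8.17 at 1000 mg/kg, against 8.31 to 8.53 at 0 mg/kg, a change of -0.51 (limma adjusted p = 0.0341). The call of Afp was lost without replicates 1, 2 or 3 of 1000 mg/kg or replicates 1, 2 or 5 of 0 mg/kg. Myt1, a zinc finger protein, changed by -0.61, Paqr9, a membrane progestin receptor, by -0.60, Tmem144, a membrane protein, by -0.58, Naaa, a lysosomal amidase, by -0.54 and Nectin3, an adhesion protein, by -0.50. Tmem144 lost its call without any single 1000 mg/kg array, and Paqr9 without replicates 2, 3 or 4 of that dose. The calls of Myt1 and Naaa were lost without replicates 1 or 3 of that dose, and that of Nectin3 without replicates 2 or 3. Omitting a control also cost calls. Tmem144 lost its call without replicates 2, 3, 4 or 5 of 0 mg/kg and Paqr9 without replicates 1, 2 or 3. Naaa lost it without replicate 2 of 0 mg/kg and Nectin3 without replicates 1 or 3. The other probe sets of Myt1 and Nectin3 gave changes between -0.04 and 0.03, so these falls rest on 1 probe set each.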

How the data were processed

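Total RNA of rat liver was hybridised to Affymetrix Rat Genome 230 2.0 arrays, with 1 array for each sample, per the labels. The deposited log2 values were made by the authors with RMA, per the submitters' processing notes, and the version and which arrays were normalized together are not given in the sources used here. RMA corrects background and equalises distributions between arrays, so that a shift shared by most genes would be removed, and brightness is not comparable between probe sets. Of 31099 probe sets, 57 were controls, 20826 had 1 gene symbol in the platform annotation, 436 several and 9780 none. Each of 14217 genes was read from its brightest probe set, judged by the mean of the 49 arrays.

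Differences were tested with limma 3.58.1 in R 4.3.3 (lmFit and eBayes) on all 25 liver arrays with 1 mean per dose, adjusted by Benjamini-Hochberg over 14217 genes. Tables were made with Python 3.11.15 and pandas 2.3.3, and the procedure was tested on simulated data. The samples are separate animals only as far as the labels call them biological replicates. The p-values of the main fit weigh a difference against the spread within dose groups over all 25 liver arrays. Replicate numbers were compared between doses and used as a block in 1 alternative only.

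The gene lists and members were chosen with earlier results of these data known. Genes named were the called members of each list (the 6 of smallest p where more were called), the 2 of smallest p in lists without a call, the first 3 markers of each cell type, and ranks 11 to 20 by size of change among called genes without overlap. Other genes named, such as Ccnb2, Gstm2, Psmb8 and Cyp2e1, were chosen after their values were seen. Of the list names, 139 were not analysed here and 4 matched through older symbols. Promoters came from RefSeq in build GRCr8, of which 11734 matched measured genes.

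Alternatives were the mean of probe sets, the brighter genes only, quantile normalization, centring on the median, a variance trend with robust fitting, array weights, a replicate block, both groups alone, omission of single arrays, and an adjusted p under 0.1.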

Additional observations from a re-analysis of the deposited data

Results flagged for a closer look

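Of 370 groups (185 named genes in 2 doses), 26 held an array whose gap to the nearest other array, relative to the group's range, passed Dixon's 95% critical value, 13 at each dose. That is 7.03%, where chance gives about 1 in 20. Replicate 3 of 0 mg/kg held 5 of these values and replicates 3 and 4 of 1000 mg/kg 4 each.

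At 1000 mg/kg, replicate 3 stood at 12.17 for Idi1 (others 11.65 to 11.71), 9.42 for Mvk (9.0 to 9.05), 12.93 for Igf1 (all others 12.97) and 8.30 for the stellate cell gene Lrat (8.15 to 8.17). Replicate 4 stood at 12.59 for Slc27a5 (12.79 to 12.81), 12.40 for Rpl41 (12.28 to 12.29), 3.98 for S100a8 (3.76 to 3.78) and 2.88 for Prss1 (3.16 to 3.21). Replicate 2 stood at 14.20 for Ttr (14.11 to 14.12), 5.08 for Cd3e (4.46 to 4.56) and 2.48 for Mcpt4 (2.90 to 2.94). Replicate 1 stood at 10.29 for Paqr9 (9.91 to 9.93) and 5.63 for Cd22 (5.83 to 5.86).

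At 0 mg/kg, replicate 3 stood high in genes of class II antigen presentation, at 10.67 for Cd74 (9.75 to 9.97) and 9.31 for RT1-Db1 (8.36 to 8.63), and at 13.58 for Apoa1 (13.31 to 13.38), 8.78 for Hmox1 (8.12 to 8.23) and 10.08 for Hba-a3 (9.68 to 9.79). Replicate 4 stood at 12.61 for Serpina6 (12.41 to 12.44), 2.90 for Prss1 (3.23 to 3.30) and 6.49 for Zmat3 (6.88 to 7.03). Replicate 2 stood at 8.19 for Acat2 (8.89 to 9.17) and 10.10 for Aldh1l2 (10.37 to 10.41), and replicate 1 at 6.52 for Cidea (7.43 to 7.67) and 8.39 for Mrpl14 (8.68 to 8.74). Replicate 5 stood at 6.53 for Gdf15 (5.34 to 5.61).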

How the results depend on the processing

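The 149 called genes (105 higher, 44 lower) and 93 called probe sets depended on the fit. Brighter genes alone, with fewer genes tested, gave 270 genes (199 higher, 71 lower) and 244 probe sets. Array weights gave 225 (168 higher, 57 lower) and 163 probe sets, and a variance trend with robust fitting 219 (154 higher, 65 lower) and 205 probe sets. The fit of both groups alone, with fewer arrays, gave 50 (29 higher, 21 lower) and 29 probe sets. An adjusted p under 0.1 gave 276 (188 higher, 88 lower). Quantile normalization gave 142 genes, centred arrays 127, the mean of probe sets 132, and omission of 500 mg/kg replicate 3 148 (99 higher, 49 lower) and 106 probe sets. Omission of 1 array of either dose gave 40 to 137 genes (30 to 101 higher, 10 to 36 lower) and 19 to 92 probe sets. Without replicate 3 of 1000 mg/kg, 39 of the 149 genes remained called. Apart from the brighter genes, both groups alone and omitted arrays, which tested fewer genes or samples, the cause was not tested.

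Same-numbered samples of the 2 doses had correlations of their deviations of 0.118, 0.025, 0.06 and -0.154. Samples of unlike number were not compared in this way, so these values cannot show whether same-numbered samples shared a cage or handling. A replicate block gave 103 genes (76 higher, 27 lower) and 66 probe sets, 90 of them genes of the 149.

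No named gene changed sign under any alternative in a way that reversed a call. Of 185 named genes, calls were lost for 50 in both groups alone, 51 without replicate 3 of 1000 mg/kg, 24 with the block, 11 with centred arrays and 6 with quantile normalization, and gained for 5 with array weights. With 4 and 5 arrays, calls of small changes were limited to genes with little spread, and signal over background is unknown for low genes such as those of mitosis.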

Other observations

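Of the called genes, 79 stand in no list. The following were chosen after their values were seen. Erg28, a scaffold of sterol synthesis enzymes, lay at 10.06 to 10.55 at 1000 mg/kg, against 9.52 to 9.73 at 0 mg/kg, and Tmem97, a sterol-binding membrane protein, at 10.19 to 10.50 against 9.55 to 9.87 at 0 mg/kg. Aox1, aldehyde oxidase, lay at 11.44 to 11.73 at 1000 mg/kg, against 10.99 to 11.22 at 0 mg/kg. Pcsk6, a proprotein convertase, lay at 7.96 to 8.31 at 1000 mg/kg, against 7.52 to 7.74 at 0 mg/kg. Their log2 changes were 0.66, 0.59, 0.51 and 0.56, and all 4 were called in each of the 9 fits that left out 1 array (limma adjusted p = 0.00313, 0.00413, 0.00401 and 0.000634).

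Gabarapl1 and Wdr45, which take part in autophagy, rose by 0.56 and 0.34 (limma adjusted p = 0.0138 and 0.0144). Gabarapl1 lay at 10.04 to 10.29 at 1000 mg/kg, against 9.48 to 9.77 at 0 mg/kg. Among falls, Tmsb4x, the actin-binding thymosin beta, lay at 11.86 to 12.05 at 1000 mg/kg, against 12.31 to 12.50 at 0 mg/kg, a log2 change of -0.46 called in all 9 such fits (limma adjusted p = 0.002). Kif18b, a mitotic kinesin that the mitosis list did not hold, lay at 3.56 to 3.80 at 1000 mg/kg, against 4.02 to 4.31 at 0 mg/kg (limma adjusted p = 0.0265). The call of Kif18b was lost without replicates 2, 3 or 4 of 1000 mg/kg or replicates 1, 2 or 5 of 0 mg/kg. It was also lost with quantile normalization (limma adjusted p = 0.0564). Zwint, a kinetochore protein, went the other way, at 9.0 to 9.43 at 1000 mg/kg, against 8.53 to 8.85 at 0 mg/kg (limma adjusted p = 0.0163). It lost its call without replicates 3 or 4 of 1000 mg/kg. Sod3, the extracellular superoxide dismutase, fell by 0.35 (limma adjusted p = 0.0367). That call was lost without replicates 1, 3 or 4 of 1000 mg/kg or replicates 1, 3, 4 or 5 of 0 mg/kg. It was also lost with centred arrays (limma adjusted p = 0.055).

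Of the 93 called probe sets, 8 carry no gene name here.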
